A study of Mus musculus with 16 samples.

Results

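Genes named as protein subunits of the mitochondrial ribosome were followed in mouse oocytes and eggs. The cells were with and without deletion of Psma7, a subunit of the 20S proteasome core. Members were all entries of the expression table whose gene name begins with Mrpl (large subunit) or Mrps (small subunit) followed by a number. Whether each named product, such as that of Mrps36, is part of the ribosome was not checked. The table held 89 such entries for 82 gene names, out of 28618 entries in all. There were 52 entries for 50 Mrpl names and 37 entries for 32 Mrps names. Of the names, 5 are marked as pseudogenes and 6 were listed more than once.

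The mitochondrial ribosome translates the few proteins encoded by mitochondrial DNA, which are core subunits of the respiratory chain and ATP synthase. Its RNAs are made in the mitochondrion, whereas its proteins are encoded in the nucleus, made in the cytosol and imported. Fully grown oocytes make almost no new mRNA, so during meiotic maturation mRNA levels change through decay and through changes in poly(A) tail length. Oligo-dT priming, as used for these libraries, captures an mRNA through its tail.

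The comparison had 4 groups. WT GV oocytes, arrested at the germinal vesicle stage, and WT MII eggs, arrested at metaphase II, came from females without the deletion. The cKO GV oocytes and cKO MII eggs came from Psma7 flox/flox females with the Zp3-Cre transgene, whose promoter drives CRE in growing oocytes and not in follicular cells. Each group had 4 libraries. All females were 3 to 4 weeks old and received 5 IU PMSG. GV oocytes were taken 44 h later. Eggs came from females that also received hCG at that time, were collected 14 to 16 h after it and were freed of cumulus cells with 0.3% hyaluronidase. Each library is a pool of 5 cells by the labels, and the study's methods give a larger pool. Expression is in FPKM, fragment counts scaled to transcript length and library size, so every value is a share of a library and the RNA content per cell is not measured. A lower FPKM in a pool cannot tell fewer transcripts per cell from fewer cells that hold them. The study reports that some ovulated cKO oocytes had not reached metaphase II, with arrest at the GV stage, in meiosis I or at telophase I. Whether the cKO egg pools held such cells is not recorded. Genotype and the stage of the cells therefore cannot be told apart in comparisons with cKO eggs.

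Psma7 itself was at 165 ± 25.3 FPKM in WT GV oocytes and 14.6 ± 2.82 in cKO GV oocytes (SD, n = 4 each). In MII eggs it was at 126 ± 32.1 in WT and 39.7 ± 20.2 in cKO, and the genotypes did not overlap at either stage. The estimated depth was 10.5 to 15.6 M fragments per library. Of the oocyte markers, the zona pellucida gene Zp3 was at 321 FPKM or more in every library. Zp3 also moved with genotype in eggs, at 321 to 487 FPKM in WT and 722 to 1314 in cKO (log2 fold change 1.20, limma adjusted p 0.0203), with a positive interaction of 1.14 (limma adjusted p 0.0235). Of the 11 entries of oocyte markers, Zp3 and Ooep were higher in cKO eggs and 0 were lower, and Ooep had a log2 fold change of 0.54 (limma adjusted p 0.0499). The cumulus and granulosa markers summed to 8.06 to 12.3 FPKM in GV libraries and 12.7 to 15.6 FPKM in egg libraries. Cyp19a1 made up most of that sum, Amh, Foxl2, Ptx3 and Tnfaip6 had means at or near 0, and the summed egg level was 14.3 ± 1.00 in WT and 14.3 ± 1.14 in cKO. Library 3 of the cKO MII eggs stood apart from the other eggs for these genes. Its members summed to 2519 FPKM, against 1678 to 1933 in the other cKO eggs and 1367 to 1595 in WT eggs. The main counts and medians of cKO eggs, and the egg fold changes of single members, are therefore also given without it. The separation of single libraries is given only with it.

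Because oocyte mRNAs with cytoplasmic polyadenylation elements near their 3′ end are known to gain tails in maturation, the annotated ends of the members were searched for this motif. The motif was written as TTTTAT or TTTTAAT on the transcribed strand, in the last 150 bases of the 3′ UTR, and was chosen after the values were known. The sites of the 4 members that rose in WT maturation and hold it are shown here, with the motif in capitals. They come from GENCODE release M21 (GRCm38): Mrpl18 at chr17:12911433-12911462 on the minus strand, Mrpl44 at chr1:79781349-79781378 on the plus strand, Mrpl47 at chr3:32725514-32725543 on the minus strand and Mrps14 at chr1:160202067-160202096 on the plus strand.
Mrpl18: gtgatttcattgTTTTAATcaagggcttaa
Mrpl44: cagctagatgtaTTTTATtccctccagctt
Mrpl47: accaagacagatTTTTATcaatatagaata
Mrps14: tcattcccaggtTTTTATgttctatgcatc
Also shown are 2 of the members that fell most, which hold the polyadenylation hexamer, in capitals below, and no such element in that window. They do not stand for all members that fell. Mrpl11 and Mrpl14 had log2 fold changes of -3.80 and -3.06 and hold the element 19 and 23 bases from the 3′ end. The hexamer also lies near the end of Mrpl18, Mrpl44 and Mrps14. The 2 sites shown are Mrpl33 at chr5:31622606-31622635 and Mrps18c at chr5:100804422-100804451, both on the plus strand.
Mrpl33: tttataggccttAATAAAaaaatatcaaaa
Mrps18c: gaagttcctgccAATAAAcctctaagtggt

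Mitochondrial ribosomal protein transcripts were abundant in GV oocytes. They summed to 3151 ± 404 FPKM in WT and 3175 ± 303 in cKO GV oocytes (SD, n = 4), which was 0.777% and 0.785% of all FPKM. Between 73 and 76 of the 89 entries reached 1 FPKM in each GV library. The 4 entries with the highest mean over the 16 libraries were Mrpl18, Mrps33, Mrpl47 and Mrpl12, and their order differed between the stages. In WT GV oocytes Mrps33 was at 208 ± 38.8 FPKM, Mrpl12 at 201 ± 13.8, Mrpl18 at 128 ± 14.2 and Mrpl47 at 85.0 ± 14.5. In WT eggs Mrpl18 was at 180 ± 18.4 FPKM, Mrpl47 at 162 ± 11.3, Mrps33 at 70.6 ± 13.1 and Mrpl12 at 6.92 ± 1.35. Mrpl12 is the counterpart of the bacterial stalk protein that recruits translation factors, and Mrps33 is a mitochondrion-specific protein of the small subunit. FPKM is scaled to transcript length, but these levels remain shares of a library and depend on capture through the poly(A) tail.

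Some members were barely present in the table. For 16 entries the mean over all libraries was below 1 FPKM. Mrpl19, Mrpl43, Mrps34, both entries of Mrps10 and both entries of Mrps18b had means of 0.0312 to 0.581 FPKM. Whether these low values come from little mRNA or from the gene models used was not tested. Mrpl43 shares exonic sequence with Twnk and Mrps34 with Mapk8ip3 and Nme3, and the library method does not keep strand. The second entries of Mrpl40, Mrps23 and Mrps35, the third of Mrps23 and the first of Mrpl22 had means of 0.00765 to 0.0778 FPKM, while the other entry of each name was measured (Mrpl40 57.2, Mrps35 22.8, Mrps23 9.74 and Mrpl22 7.05 FPKM). The pseudogene-named Mrps36-ps1, Mrps36-ps2, Mrps36-ps3 and Mrpl23-ps1 had means of 0.0540 to 0.365 FPKM. The remaining pseudogene-named entry, Mrpl48-ps, had a mean of 9.73 FPKM and is counted among the members tested in every comparison. It fell in WT maturation, with a log2 fold change of -2.64 (limma adjusted p 3.2e-05). Pseudogene reads and reads of the parent gene may not be separable.

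**Figure D1:**
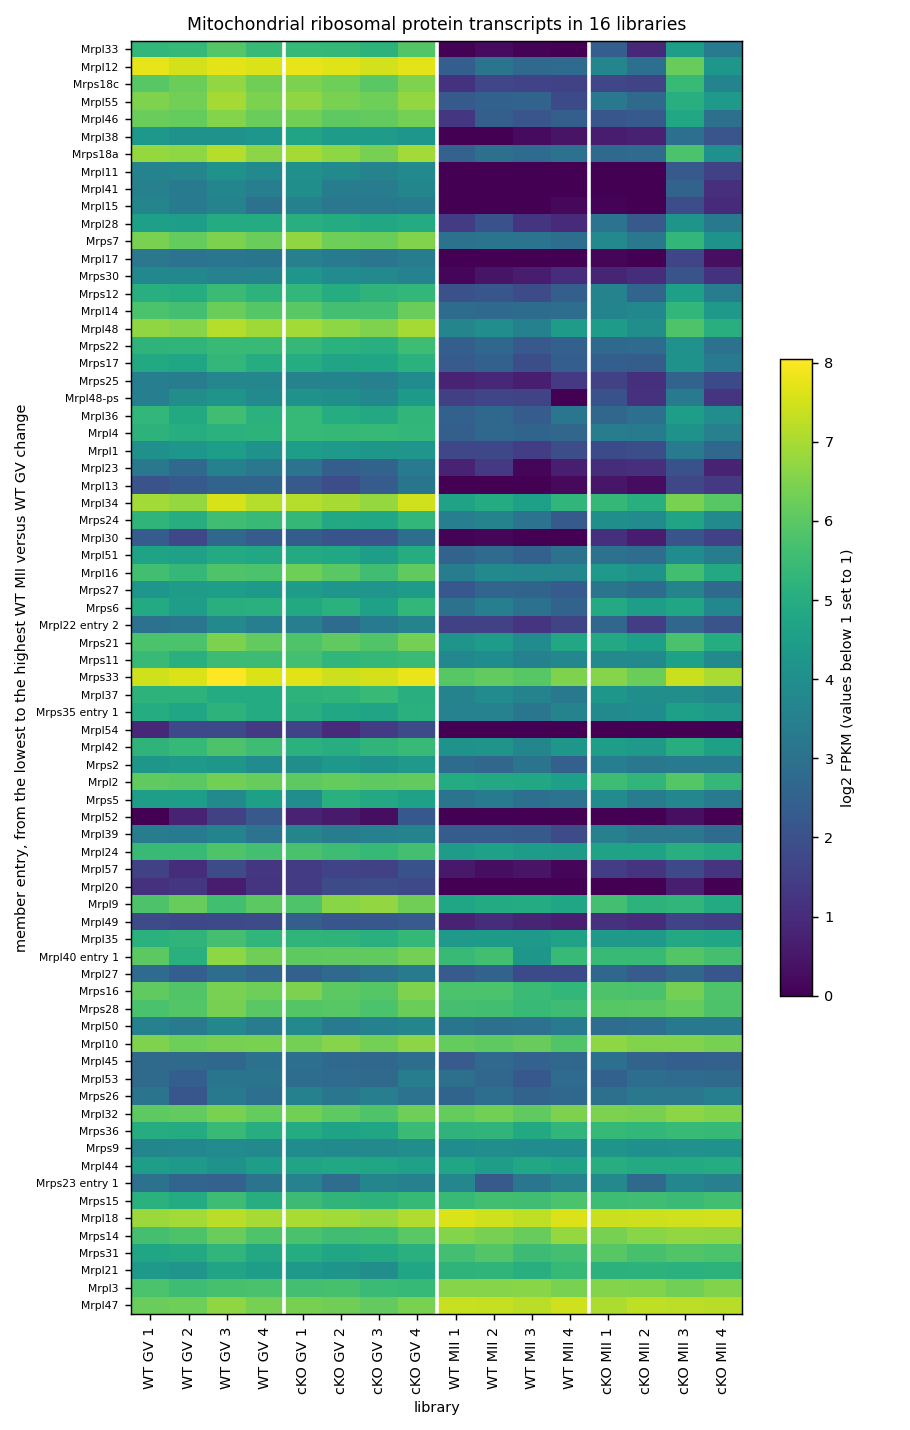
Expression of the 73 member entries tested in WT maturation (rows, from the lowest to the highest WT MII versus WT GV change) in the 16 libraries (columns); colour is log2 FPKM with values below 1 set to 1. The 8 GV columns look alike, most rows are darker in eggs, and the column of cKO MII 3 is brighter than its neighbours in most rows that darken.

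In WT oocytes most members fell from GV to MII. Of 73 entries tested, 58 fell, 8 rose and 7 did not pass the test, which was limma on log2 FPKM with values below 1 set to 1, at a Benjamini-Hochberg adjusted p under 0.05 over all entries. Over all 10475 entries tested, 52.4% fell and 26.1% rose. The median log2 fold change was -1.56 for the members and -0.44 over all entries. Their summed level was 1509 ± 101 FPKM in WT eggs, 0.381% of all FPKM, and 64 entries reached 1 FPKM in every WT egg library. By name, 39 of 47 Mrpl entries and 19 of 26 Mrps entries fell. When each library was rescaled by its median ratio to the others over expressed genes, the median of all entries moved up by 0.48 on the log2 scale and the members' median became -1.20. Relative to all entries, the members' median was -1.12 as deposited and -1.23 after rescaling.

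Among the members that fell furthest, Mrpl33, a small protein of the large subunit, was at 40.0, 42.1, 60.6 and 43.9 FPKM in the 4 WT GV libraries and at 1.04, 1.17, 1.05 and 0.977 in the 4 WT eggs. Its log2 fold change was -5.43 (SE 0.143, limma adjusted p 5.49e-10). Mrpl12 was at 214, 183, 208 and 198 FPKM in WT GV oocytes and at 5.28, 8.58, 6.77 and 7.03 in WT eggs, a log2 fold change of -4.88. The stages were far apart in both, with no overlap, and Mrpl12 went from the most abundant members to a minor one. Both genes were chosen for their fall in these same libraries, so the separation is a description only. Mrps18c, one of a group of paralogs related to one bacterial small subunit protein, was at 61.5 to 107 FPKM in WT GV oocytes and 2.26 to 3.27 in WT eggs. Its paralog Mrps18a, whose product is known to sit in the large subunit, was at 101 to 143 FPKM and 5.80 to 8.16. The log2 fold changes of these paralogs were -4.78 and -3.98, and Mrps18b was too low to test. The mitochondrion-specific large subunit members Mrpl55, Mrpl46 and Mrpl38 fell, with log2 fold changes of -4.27, -4.21 and -4.00. Mrpl46 shares exonic sequence with Mrps11 on the other strand. Mrpl38 is near the floor of 1 FPKM in WT eggs, as is Mrpl33, so the fitted fold is held by that floor.

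A smaller set rose. Mrpl47 was at 73.2, 76.7, 106 and 84.6 FPKM in WT GV oocytes and at 164, 163, 148 and 175 in WT eggs. Its log2 fold change was 0.94 (SE 0.115, limma adjusted p 1.91e-05). Mrpl3, which lies close to the peptidyl transferase centre in ribosomes, was at 46.9 to 55.0 FPKM in WT GV oocytes and 85.9 to 98.5 in WT eggs, a log2 fold change of 0.86. Mrpl21 rose by 0.80, Mrps31 by 0.72, Mrps14 by 0.60 and Mrpl18 by 0.49 on the log2 scale. The stages did not overlap in 5 of these 6 genes, and in Mrps14 the lowest egg value (73.0 FPKM) was just under the highest GV value (73.6). The 6 genes were chosen for their change in these same libraries, so this separation is a description and no test. Its share over all entries was not computed. Mrpl18 reached 154 to 195 FPKM in WT eggs. Mrpl47 shares exonic sequence with Actl6a and Ndufb5, Mrpl18 with Tcp1 and Mrpl21 with Ighmbp2, all on the other strand.

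Of the members with a coding transcript model, the polyadenylation element was present in 8 of 57 that fell (14.0%), 2 of 7 that did not pass the test and 4 of 8 that rose (50%). Over all entries with a model tested in WT maturation, it was in 17.2% of those that fell, 30.2% of those not called and 37.5% of those that rose, and in 25.2% overall. The hexamer AATAAA or ATTAAA lay in the last 50 bases of 41 of the 57 members that fell (71.9%) and 4 of the 8 that rose. It was in 78.6% of all entries tested. Member transcripts were short, with a median of 1302 bases against 2878 for all entries tested. The median length was 1223 bases for members that fell and 1470 for members that rose. These are descriptions of annotated ends, which may not be the ends used in oocytes, and no test was made.

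**Figure D2:**
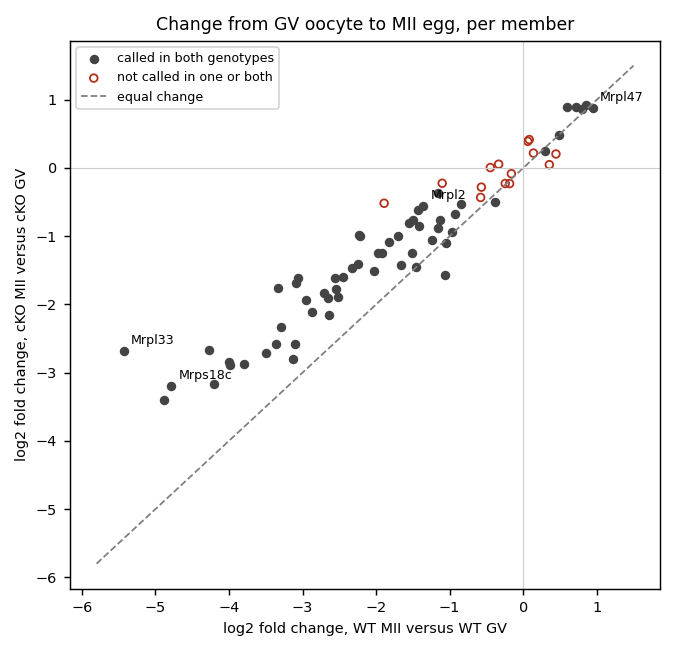
Log2 fold change from GV oocyte to MII egg in WT (horizontal axis) and in cKO (vertical axis) for the 73 member entries tested in both; filled points passed the test in both genotypes, open points did not in one or both, and the dashed line marks equal change. Points for members that fell lie mostly above the line, and Mrpl33 lies farthest above it.

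Most members also fell from GV to MII in the cKO. Of 73 members tested, 52 fell, 10 rose and 11 did not pass the test, against 51% that fell and 23% that rose over all 10748 entries. The median log2 fold change was -1.05 for the members and -0.42 over all entries. The 2 maturation comparisons share no library. All 52 members that fell in cKO also fell in WT, a further 6 passed as lower in WT and did not pass in cKO, and 7 rose in both. Across members the log2 fold changes of the 2 genotypes had Pearson r = 0.958 and Spearman rho = 0.958 over 73 entries, against r = 0.947 over 10361 entries, where points share libraries and are not independent. In 65 of the 73 members (89%) the log2 fold change was higher in cKO, against 53.9% of all entries, and the test of that difference, the genotype by stage interaction, passed for 1 member. A fall of more than 8-fold was seen for 16 members in WT and 3 in cKO, and the share over all entries at 8-fold was not computed. Some of these WT falls, as in Mrpl11 and Mrpl41, ended below the floor of 1 FPKM, which limits the fitted fold. Without library 3 of the cKO eggs, 52 members fell, 8 rose and the median was -1.23.

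Those members with the steepest falls in WT also fell in cKO, with a wide spread among cKO eggs. In the cKO eggs Mrpl12 was at 12.6, 7.68, 72.8 and 19.1 FPKM, Mrps18c at 3.26, 3.12, 43.1 and 12.4 and Mrpl46 at 4.43, 4.87, 27.4 and 7.91. Library 2 of the cKO eggs was within the WT range for all 3 genes and library 3 was the highest. Their log2 fold changes in cKO maturation were -3.40, -3.20 and -3.16. Of the 8 members that rose in WT, 7 also rose in cKO. The exception was Mrps15, named after its values were seen, with 0.45 in WT (limma adjusted p 0.0092) and 0.20 in cKO (0.0689). Mrpl47 rose by 0.88, Mrpl3 by 0.93, Mrpl21 by 0.87, Mrps31 by 0.89, Mrps14 by 0.90 and Mrpl18 by 0.49 on the log2 scale in cKO.

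In GV oocytes no member passed the genotype test. Of 74 members tested by limma, 0 were higher and 0 lower in cKO, against 0.0994% higher and 0.0181% lower over all 11062 entries. At an unadjusted p under 0.05, 7 members were higher (9.46%) and 0 lower, against 7.62% and 3.06% of all entries. The median log2 fold change was 0.02 for the members and 0.04 over all entries, and 40 of 74 values were positive. One of these, Mrps34, had a WT mean of 0.925 FPKM and was tested only through its cKO values. No member differed more than 3-fold in means, against 0.0633% of all entries. Every cKO library was above every WT library in 4 of 74 members (5.41%), against 4.25% of all entries.

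The 6 largest differences in GV oocytes were all positive. Mrpl20, a protein of the large subunit, was at 1.57 to 2.41 FPKM in WT and at 2.71, 3.54, 3.70 and 3.45 in cKO. Its groups did not overlap, at a log2 fold change of 0.67 (SE 0.177, limma adjusted p 0.185). The first entry of Mrps23 had 0.59 (adjusted p 0.286), Mrpl9 0.48 (0.401), Mrpl49 0.47 (0.185), Mrps26 0.44 (0.517) and Mrpl44 0.34 (0.281), in the same limma test.

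In MII eggs 15 of 70 members were higher in cKO than in WT and 0 were lower. That is 21.4% of the members, against 6.53% higher and 1.49% lower over all 9492 entries tested. The median log2 fold change was 0.67 for the members and 0.07 over all entries, and 64 of 70 values were positive. Mrpl11, Mrpl13, Mrpl15, Mrpl17, Mrpl30 and Mrpl41 had WT egg means under 1 FPKM. They were tested only because the mean over both egg groups reached 1 FPKM, so their positive sign was favoured. Mrpl30 was among the 15. At an unadjusted p under 0.05, 43 members were higher (61.4%) and 0 lower, against 20.6% and 8.80% of all entries. By name, 9 of 44 Mrpl and 6 of 26 Mrps entries were higher, with medians of 0.69 and 0.65. Every cKO egg library was above every WT egg library in 29 members (41.4%), against 13.6% of all entries. The means were more than 3-fold apart in 7 members (10%), against 1.78% of all entries. After the median-ratio rescaling the whole table had 501 entries higher and 332 lower, in place of 620 and 141, and the members had 12 higher and 0 lower.

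These calls depended on single libraries. Without library 3 of the cKO eggs, 11 of 68 members were higher, all of them among the 15, and the median log2 fold change was 0.43 with 62 of 68 values positive. In that fit 287 of 9365 entries were higher over the table, and 1 member was more than 3-fold apart in place of 7. The share of all entries over 3-fold was not computed without library 3. Without WT egg library 1, 3 or 4, 0 members passed in limma, and 33, 31 and 39 were higher at an unadjusted p under 0.05, against 16.3%, 17.6% and 18.3% of all entries. Without WT egg library 2, 3 members passed. The count over the whole table went from 620 higher to 12, 109, 3 and 31 without WT egg library 1, 2, 3 and 4. Without cKO egg library 1, 2 or 4, 4, 26 and 7 members passed, with 166, 1024 and 360 entries higher over the table.

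**Figure D3:**
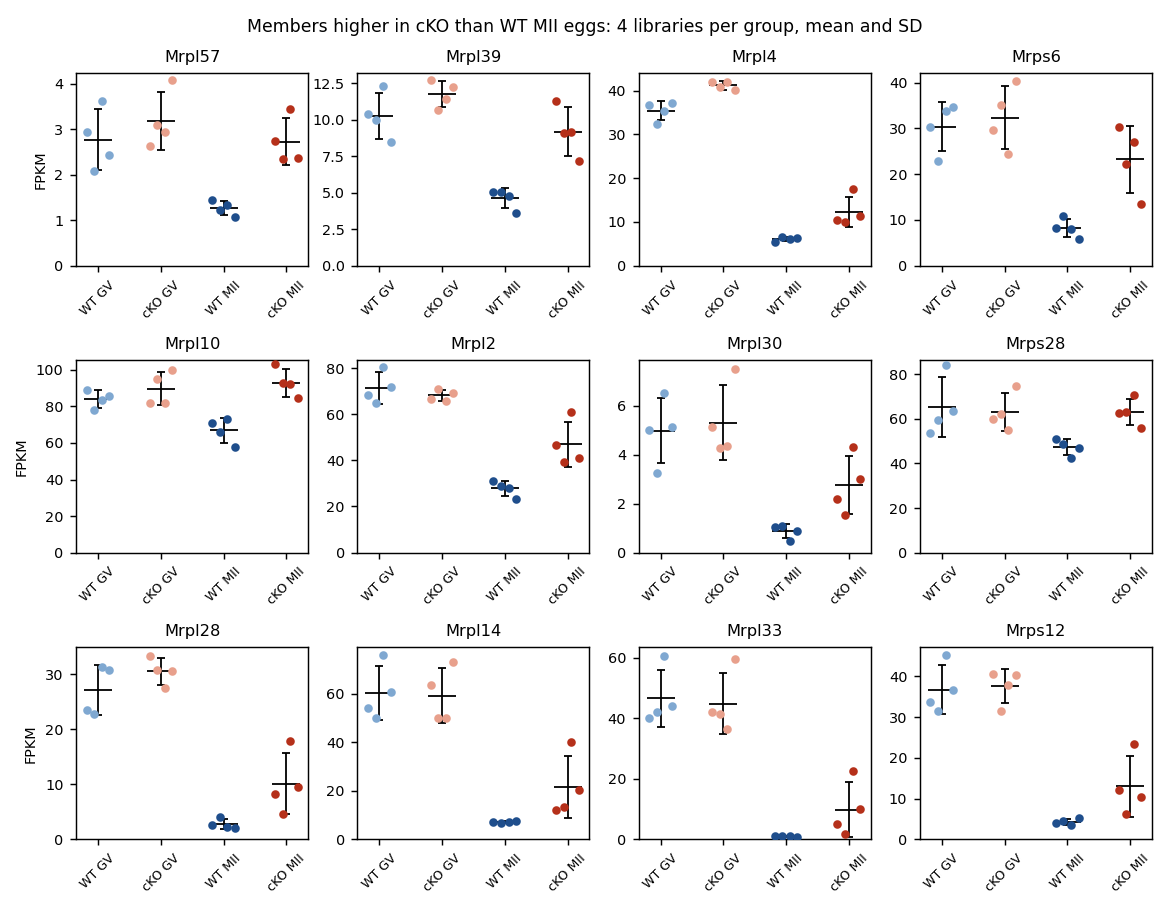
FPKM of the 12 members with the lowest adjusted p in cKO MII versus WT MII, in the 4 libraries of each group (points, in replicate order), with mean and SD. In every panel the 4 cKO MII points lie above the 4 WT MII points, while the GV groups overlap or lie close together.

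In Mrps6, Mrpl39 and Mrpl10, library 3 was not the highest of the cKO eggs. Mrps6, a protein of the small subunit, was at 8.19, 10.9, 8.06 and 5.93 FPKM in WT eggs and at 30.3, 22.2, 27.0 and 13.5 in cKO eggs. Its log2 fold change was 1.46 (SE 0.264, limma adjusted p 0.0254), and 1.37 without library 3 of the cKO eggs. Mrps6 shares exonic sequence with Slc5a3 on the same strand, so reads of the 2 genes may be mixed. Mrpl39, a mitochondrion-specific member of the large subunit, was at 5.03, 5.04, 4.81 and 3.60 FPKM in WT eggs and at 11.3, 9.12, 9.15 and 7.18 in cKO eggs. The cKO GV level was 11.8 ± 0.914 FPKM, and 3 of the 4 cKO eggs lay below every cKO GV library. The log2 fold change between the eggs was 0.99 (adjusted p 0.0216 by limma), and 0.98 without library 3 of the cKO eggs. Mrpl10, which anchors the stalk, was at 71.1, 66.0, 72.9 and 57.7 FPKM in WT eggs and at 103, 92.7, 92.1 and 84.4 in cKO eggs. Its difference was small, 0.48 on the log2 scale (limma adjusted p 0.0292), and 0.48 without library 3 as well. Mrps28 was at 50.9, 48.8, 42.5 and 47.2 FPKM in WT and 62.6, 63.1, 70.6 and 56.0 in cKO eggs, a log2 fold change of 0.41 (limma adjusted p 0.0332), and 0.36 without library 3, which did not pass. Mrpl57 was low, at 1.08 to 1.45 FPKM in WT and 2.34 to 3.45 in cKO eggs, and had the lowest adjusted p of the members (0.0191 by limma, log2 fold change 1.09, and 0.97 without library 3).

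In other members library 3 of the cKO eggs was well above the rest, which also lay above WT. Mrpl33 was at 5.26, 1.85, 22.5 and 9.96 FPKM in cKO eggs, all above the highest WT egg value of 1.17. Its log2 fold change of 2.68 (SE 0.626, limma adjusted p 0.0386) was the largest of the members, and it was 2.11 without library 3. Mrpl28 was at 8.31, 4.71, 17.8 and 9.50 FPKM in cKO eggs against 2.66, 4.11, 2.30 and 1.99 in WT eggs. Mrpl14, which shares exonic sequence with Tmem63b, was at 12.3, 13.6, 40.1 and 20.2 FPKM against 6.75 to 7.49. Mrps12, the counterpart of a bacterial protein at the decoding site, was at 12.1, 6.13, 23.5 and 10.3 FPKM against 3.94, 4.48, 3.59 and 5.36. These 3 genes had log2 fold changes of 1.76, 1.42 and 1.43, and 1.44, 1.07 and 1.09 without library 3. Mrpl30 was at 2.19, 1.56, 4.30 and 3.02 FPKM in cKO eggs and 0.472 to 1.10 in WT eggs. The WT mean was 0.874 FPKM, so Mrpl30 was tested only through its cKO values. WT values below 1 FPKM were set to 1 in the fit of Mrpl30. Its log2 fold change was 1.31, and 1.07 without library 3. Mrpl4, which lines the exit tunnel in ribosomes, was at 9.88 to 17.5 FPKM in cKO against 5.42, 6.54, 6.01 and 6.30. Its log2 fold change was 0.99 (limma adjusted p 0.0240), and 0.81 without library 3. All cKO eggs were still far below the GV level of Mrpl4, which was 41.2 ± 0.944 FPKM in cKO.

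**Figure D4:**
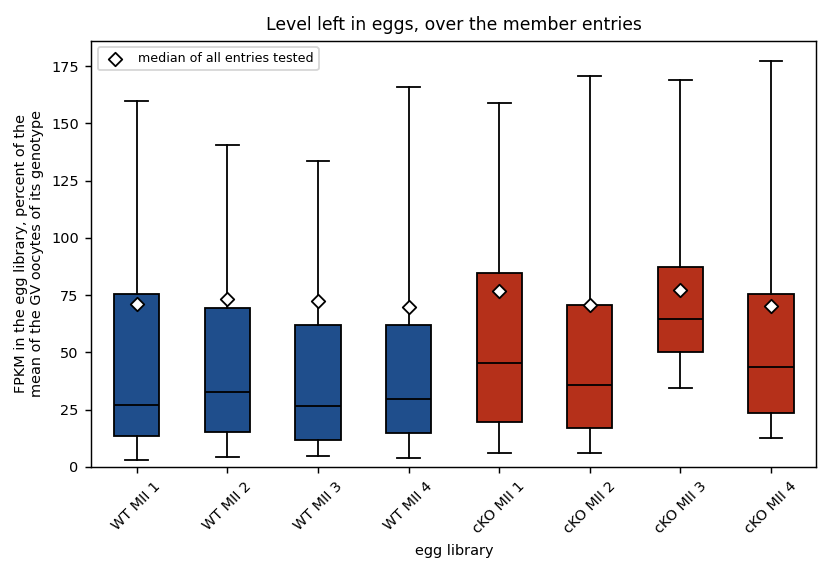
FPKM in each egg library as a percent of the mean of the GV oocytes of its genotype, over the 73 member entries tested in WT maturation (box, quartiles and median; whiskers, the 5th and 95th percentiles), with the median over all entries tested (diamond). The members' medians are 26.5 to 32.5% in WT eggs and 35.5 to 64.6% in cKO eggs, while the diamonds stay between 70.0 and 77.4%.

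Each egg library was also set against the GV oocytes of its own genotype. The median member was at 27.0, 32.5, 26.5 and 29.7% of its GV level in the 4 WT egg libraries and at 45.5, 35.5, 64.6 and 43.5% in the 4 cKO egg libraries. The genotypes did not overlap, and library 2 of the cKO eggs was nearest to WT. Over all entries the medians were 70.0 to 73.2% in WT and 70.4 to 77.4% in cKO eggs. Over the entries that fell in WT maturation they were 30.8 to 33.7% in WT and 34.1 to 47.8% in cKO eggs, with a narrow gap between the genotypes. For the members that fell they were 17.0 to 22.2% in WT and 27.6 to 58.4% in cKO eggs. Both of these sets were chosen for low values in the same WT eggs. That choice favours lower WT percentages, so neither comparison is a test of genotype. Library 3 of the cKO eggs held the highest value of the 8 egg libraries in 48 of 70 members, and that share over all entries was not computed. Library 3 also had the highest median over all entries that fell in WT maturation, at 47.8%. Its excess over the WT egg mean was 1.45 on the log2 scale for the median of 16 members of up to 900 bases and 0.98 for 23 members of more than 2000 bases. In library 2 these values were 0.18 and 0.13. The same excesses were not computed over all entries.

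The test of whether the genotypes differ in their change from GV to MII passed for 1 of 73 members, Mrpl2, and for 0 in the negative direction. Over all 10615 entries 1.07% had a positive and 0.188% a negative interaction. Mrpl2 lies near the catalytic centre of the ribosome. It was at 71.3 ± 6.75 FPKM in WT and 68.1 ± 2.34 in cKO GV oocytes (SD, n = 4). In eggs it was at 30.9, 29.1, 28.1 and 23.2 FPKM in WT and at 46.8, 39.1, 60.8 and 41.2 in cKO. Its log2 fold change in maturation was -1.36 in WT and -0.56 in cKO, and the interaction was 0.80 (SE 0.175, limma adjusted p 0.0357). With 1 library left out at a time, Mrpl2 passed in 6 of 16 fits, with values of 0.67 to 0.89. The interaction was positive in 65 of the 73 members, with a median of 0.62 against 0.03 over all entries, and 28 were positive (38.4%) and 0 negative at an unadjusted p under 0.05, against 12.7% and 5.03% of all entries. Without library 3 of the cKO eggs, 4 members passed and the median was 0.39, and 123 of 10648 entries over the table had a positive interaction.

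Other genes of mitochondrial translation were listed by role. Of 6 mitochondrial ribosomal proteins with other symbols, 5 fell in WT maturation and 5 in cKO, and 1 was higher in cKO eggs. This was Chchd1, a protein of the small subunit, at 8.16 to 12.8 FPKM in WT and 14.2 to 48.3 in cKO eggs (log2 fold change 1.29, limma adjusted p 0.0461). Of the 17 mitochondrial translation factors and related genes, 11 were tested in eggs and 2 were higher in cKO. Mrrf, the ribosome recycling factor, was at 4.00 to 4.24 FPKM in WT and 6.08 to 11.9 in cKO eggs (log2 fold change 0.93, limma adjusted p 0.0340). Mtrf1, a release factor family member, had a log2 fold change of 0.52 (limma adjusted p 0.0446). Of the 23 assembly factors, 15 were tested in eggs and 1 was higher in cKO, the rRNA methyltransferase Tfb1m, at 31.3 to 35.9 FPKM in WT and 39.4 to 42.4 in cKO eggs. In GV oocytes 18 assembly factors were tested and 1 was higher in cKO, Ngrn, at 26.2 to 32.1 FPKM in WT and 41.1 to 45.4 in cKO (log2 fold change 0.59, limma adjusted p 0.0478). Without library 3 of the cKO eggs, Mrrf had a log2 fold change of 0.73 and passed (limma adjusted p 0.0337). Chchd1 (0.97, adjusted p 0.0524), Mtrf1 (0.43, 0.0877) and Tfb1m (0.25, 0.0937) did not pass in that limma fit. Of 8 genes of mitochondrial DNA upkeep and transcription, 7 were tested in each maturation. Of these, 6 fell in WT and 6 in cKO, and 0 of 6 tested passed in eggs. Over all entries tested, 52.4% fell in WT and 51% in cKO maturation. The shares of all entries that were higher in cKO were 6.53% in eggs and 0.0994% in GV oocytes.

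The median log2 fold change in cKO MII versus WT MII was 0.23 for the assembly factors, 0.17 for the translation factors and 0.23 for mitochondrial DNA upkeep. It was 0.87 for the cytosolic ribosomal proteins, of which 25 of 77 were higher and 0 lower, and 0.86 for the complex I subunits, of which 10 of 37 were higher and 0 lower. Without library 3 of the cKO eggs these medians were 0.68 and 0.58, with 19 of 72 and 5 of 36 higher, and the members' median was 0.43. In WT maturation the cytosolic ribosomal proteins had a median of -2.36 and the complex I subunits -1.94, both lower than the members. In GV oocytes 0 of 84 and 0 of 38 passed the genotype test. The differences between these lists were not tested.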

How the data were processed

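Libraries of oocytes and eggs were prepared by the Smart-seq2 method, primed on poly(A). The authors deposited 1 table of FPKM values per gene and library; the submitters' processing notes name TopHat2 2.1.1, Cufflinks 2.2.1 and mm10. The annotation they used is not given in the sources used here, and no spike-in row was used. Groups came from the sample labels, and 0 columns of other samples were left out. FPKM below 1 was set to 1. Only entries averaging 1 FPKM or more in a comparison were tested, with limma 3.58.1 in R 4.3.3, with an intensity trend, and p-values were adjusted by Benjamini-Hochberg over all of them. That average was over all groups of the comparison. An entry low in 1 group could therefore be tested through another group alone, which favours its direction. Pairwise comparisons used the 8 libraries concerned and the interaction of genotype and stage used 16. The code was tested on simulated data. The labels call the replicates biological, without saying how cells were shared between females. Depth was estimated from the steps between values below 0.6 FPKM. At this depth values well under 1 FPKM rest on few fragments.

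The members and lists were chosen with earlier results of these data known. The genes named are up to 12 members with the lowest adjusted p per genotype comparison (or the 6 largest differences where fewer than 6 passed), the 6 lowest and 6 highest changes in WT maturation, interaction calls, the 4 most abundant members, members under 1 FPKM, paralogs and repeated entries, and pathway genes called. Mrpl44 is also named for its polyadenylation element, after its values were seen. From the cytosolic list, S6 kinases and other names that only share the prefix were removed. Gene models for 77 of 82 names came from GENCODE release M21 (GRCm38). Python 3.11.15 was used outside limma. Alternatives covered the floor (0.1 FPKM, or 1 FPKM added), the filter (none, or 5 FPKM), rescaling of libraries, moderation without the trend, blocking on replicate number, a joint fit, summing of repeated entries, and leaving out each library.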

Additional observations from a re-analysis of the deposited data

Results flagged for a closer look

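A value was marked when its gap to the nearest of the other libraries, divided by the range of its group of 4, exceeded Dixon's 95% critical value. Among 130 groups looked at, 3 were marked, and chance alone marks about 5% of groups. Mrpl39 was lowest in library 4 of the WT MII eggs, at 3.60 FPKM. Mrpl46 was highest in library 3 of the WT GV oocytes, at 94.0 FPKM, and highest in library 3 of the cKO MII eggs, at 27.4 FPKM. Mrpl2 was marked because its change from GV to MII differed between the genotypes, by 0.80 on the log2 scale.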

How the results depend on the processing

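Of 122 summary values under other settings, 111 stayed within 1.5 times the count or within the spread of the median. The count of members higher in cKO MII eggs went from 15 to 8 with no filter, 9 with no trend, 4 with the replicate block and 34 with all 16 libraries in one fit. Over the whole table the count went from 620 to 354, 415, 101 and 1328 in the same order. The members with a positive interaction went from 1 to 4 with rescaling, 4 under the stricter filter of 5 FPKM and 0 with the replicate block. Over the whole table the positive interactions went from 114 to 156, 192 and 53. The replicate numbers did not pair the libraries (correlations of deviations from -0.496 to 0.285), so the replicate block is only an alternative. In WT maturation the members' median became -1.83 with a floor of 0.1 FPKM, -1.20 with rescaling and -1.66 under the filter of 5 FPKM. At 2-fold, 21 members differed in eggs in place of 7, and the share over all entries at 2-fold was not computed. With rescaling, the log2 fold changes of Mrpl10 and Mrps28 in WT maturation turned to 0.13 and 0.018 and that of Mrpl39 in cKO maturation to 0.029. The causes were not tested.

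With each library left out, members higher in cKO MII eggs ranged from 0 to 26, members over 3-fold in eggs from 1 to 12, and members with a positive interaction from 0 to 14. Over the whole table the entries higher in cKO eggs ranged from 3 to 1024, and those with a positive interaction from 37 to 605. The share of all entries over 3-fold was not computed in these fits. The members' median in eggs ranged from 0.43 to 0.78, in the interaction from 0.39 to 0.76, in cKO maturation from -1.23 to -0.90, in WT maturation from -1.66 to -1.53 and in GV oocytes from -0.03 to 0.11. In WT maturation 7 to 9 members rose and 56 to 59 fell, and in cKO maturation 8 to 10 rose and 50 to 53 fell. FPKM gives no exact counts, so no counting interval stands beside single values.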
